A study of Mus musculus with 27 samples.

Results

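Sgk1, Ldlrad3, Hrob, Tada2a and Tram1 are the protein-coding genes that held the 1 kb tiles with the widest differences in CpG methylation among hepatocytes of 9 inbred mouse strains. Their members here are the CpG positions within the GRCm38 span of each gene and 5 kb on either side that were listed in at least 2 of the 3 samples of every strain. These were 843 of the 1951655 such positions in the series, with 299 at Sgk1, 232 at Ldlrad3, 112 at Hrob, 106 at Tada2a and 94 at Tram1, and they fall in 5 of the 49980 genes of the gene table. The genes were chosen by the measured range of strain means (highest minus lowest strain, in percentage points) in a tile. Among tiles called different, those of Sgk1, Ldlrad3, Hrob, Tada2a and Tram1 ranked 5, 6, 7, 9 and 10, with ranges of 91.6, 89.96, 89.9, 88.7 and 88.3 points. The next tile, just outside the choice, ranked 11, lay in Ptpn3 and spanned 87.9 points. The levels in those tiles and in the stretches around them are therefore given as a description with no test.

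DNA came from hepatocytes, which make up most of the mass of the liver. They were taken from 27 female mice, all 12 weeks old, with 3 samples labelled as biological replicates for each strain. The laboratory strains were A/J, DBA/2J, C57BL/6J, 129S1/SvImJ, NZO/HlLtJ and NOD/ShiLtJ, and the wild-derived strains WSB/EiJ, PWK/PhJ and CAST/EiJ. No treatment or engineered allele is given in the labels and no strain served as a control. Methylation was read by reduced representation bisulfite sequencing (RRBS), in which DNA is cut with MspI at CCGG, so that only CpGs near such cuts are read. The 3 samples of a strain share its genotype, and p-values measure the spread between such mice.

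The lists held between 2904787 and 3156965 positions per sample, each with a percent methylation and no read count, so the depth behind a value is unknown. The mitochondrial chromosome was named M in the C57BL/6J files and MT in the others. C57BL/6J samples also differed more from each other than those of other strains did, by a mean of 5.44 points per position against 4.53 to 4.89. Called positions and stretch ranges that rest on C57BL/6J are therefore also given without it. Of 32 genes fixed as cell type markers, 7 had at least 3 positions within 1 kb of the start. Given as means over all samples, the hepatocyte factors Hnf4a, Cebpa and Foxa2 stood at 7.95%, 0.471% and 2.28%, the bile duct genes Krt7 and Epcam at 24.3% and 17.0%, the stellate cell genes Lrat and Des at 3.12% and 10.5%, and no immune or endothelial marker could be read. Single samples ranged from 0.758% to 23.0% at Hnf4a, 14.5% to 38.4% at Krt7 and 7.30% to 24.5% at Epcam.

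CpG methylation is a mark that DNA methyltransferases copy onto the new strand when a cell divides. In mammalian cells most CpGs are methylated, while CpG-rich promoters usually are not. The 5 genes have unrelated functions. Sgk1 encodes a kinase that is induced by serum and glucocorticoids and acts downstream of insulin and aldosterone, and Ldlrad3 a receptor-like membrane protein. Hrob encodes a factor of homologous recombination that recruits the MCM8-MCM9 helicase, Tada2a an adaptor subunit of histone acetyltransferase complexes, and Tram1 a membrane protein at the site where new polypeptides enter the endoplasmic reticulum.

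The stretches lay inside the genes, and in the 3 genes with a start in the promoter table they lay outside the windows around their starts. To show how the starts differ, 3 promoter sequences are printed: 1 whose methylation differed between strains and 2 that were low in every strain. They are the 250 bases before a start, from RefSeq promoter sequences on GRCm38.p6, written 5′ to 3′ on the strand of the gene. Capitals mark CpGs listed in at least 2 of 3 samples of every strain. The first is the Sgk1 start at which strains differed, chr10:21978422-21978671 on the plus strand, with 7 CpGs of which 3 were listed. The next is the last Sgk1 start before the stretch, chr10:21994416-21994665 on the plus strand, with 22 CpGs of which 14 were listed. The last is the Ldlrad3 start, chr2:102186461-102186710 on the minus strand, with 11 CpGs of which 6 were listed.
Sgk1 start at 21978672: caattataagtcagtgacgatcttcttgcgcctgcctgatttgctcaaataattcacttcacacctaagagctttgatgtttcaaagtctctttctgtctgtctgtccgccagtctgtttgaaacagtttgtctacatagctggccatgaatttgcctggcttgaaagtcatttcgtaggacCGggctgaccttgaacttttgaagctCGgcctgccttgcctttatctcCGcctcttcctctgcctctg
Sgk1 start at 21994666: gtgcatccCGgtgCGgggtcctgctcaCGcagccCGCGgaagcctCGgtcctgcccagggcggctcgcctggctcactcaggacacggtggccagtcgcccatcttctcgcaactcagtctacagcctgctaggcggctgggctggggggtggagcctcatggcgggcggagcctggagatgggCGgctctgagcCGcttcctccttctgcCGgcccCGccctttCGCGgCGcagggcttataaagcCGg
Ldlrad3 start: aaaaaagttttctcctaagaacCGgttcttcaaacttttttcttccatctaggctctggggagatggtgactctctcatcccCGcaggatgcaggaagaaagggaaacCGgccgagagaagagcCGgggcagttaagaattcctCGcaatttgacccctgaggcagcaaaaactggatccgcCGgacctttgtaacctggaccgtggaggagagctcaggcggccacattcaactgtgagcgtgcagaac
The site CCGG, which is its own reverse complement, occurs 1, 3 and 4 times in them, and 46.8% of the 27025 promoters of the table hold it. The median promoter of that table has 6 CpGs in these 250 bases. For the stretches themselves no sequence was used here.

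A position was taken as divergent when its strain means spanned at least 25 points. This held for 15.0% of all such positions of the series, and for 20.4% of the positions of Sgk1, 13.8% of Ldlrad3, 24.1% of Hrob, 8.49% of Tada2a and 8.51% of Tram1. The share of Ldlrad3 was thus close to that of the series and those of Tada2a and Tram1 were smaller, although each held a tile with a range over 80 points. These shares include the stretch positions. Outside the stretches they were 15.4% at Sgk1, 11.5% at Ldlrad3, 18.3% at Hrob, 3.0% at Tada2a and 2.27% at Tram1. The shares also depend on where positions were listed: 93 of 106 at Tada2a and 109 of 232 at Ldlrad3 lay within 500 bp of the start, where methylation was low in every strain. A stretch was followed outward from the chosen tile over divergent positions, allowing up to 2 positions in a row that were not divergent and gaps of up to 1000 bp. Because RRBS reads only some CpGs, a border is known to lie only between the last divergent position and the next listed one. Where that next position was itself divergent but over 1000 bp away, as below the Ldlrad3 stretch, the border was not fixed.

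The Sgk1 stretch was the widest. Sgk1 lies at chr10:21882184-21999903 on the plus strand, and its stretch ran from 21997125 to 21998963, which is 1839 bp with 20 positions, of which 18 were divergent. It lay in the last part of the gene, 940 bp before the higher end and 2459 bp beyond the last of the 6 starts in the promoter table. Whether it falls in an exon, an intron or the 3′ UTR was not analysed here. NZO/HlLtJ was low, at 20.1%, 22.7% and 25% in its 3 samples, and CAST/EiJ was intermediate, at 46.4%, 49.2% and 52.6%. A/J was highest, at 90.3%, 92.2% and 93.9%. The other strains had means of 69.2% to 81.7%, and no sample of theirs fell below 61.9%, so that NZO/HlLtJ and CAST/EiJ each stood clear of all other samples.

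Within the Sgk1 stretch NZO/HlLtJ had the lowest mean at 20 of 20 positions, CAST/EiJ the second lowest at 15, and A/J the highest at 15. At the 13 positions shared by all strains up to 21998726 NZO/HlLtJ was at or below 9.82%, and at the 7 positions from 21998835 on it stood between 30.2% and 75.3%. Of 10 further positions in the stretch that NZO/HlLtJ and some but not all of the other strains listed, it was at or below 0.952% at 6. At the other 4 it was at 25% (21997914), 33.3% (21998687), 66.7% (21998693) and 100% (21998679), and at the last 2 it was above CAST/EiJ, at 0% and 75%, and PWK/PhJ, at 54.2% and 74.4%. At 21998687 it was above CAST/EiJ, at 0%, and below PWK/PhJ, at 63.7%. Its low level therefore did not hold at every listed CpG before 21998726. The range of strain means was widest, at 100 points, at 21997374 and 21997382, where NZO/HlLtJ was at 0%, and narrowest, at 21.0 points, at 21998954. CAST/EiJ changed along the stretch as well, from 8.35% at 21998022 to 89.4% at 21998954. On the near side the next listed position, 21995148, lay 1977 bp away and was at most 11.1% in any strain. No further member position was listed on the far side, so that border was not reached.

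Ldlrad3 had the narrowest stretch at these settings, although that of Tram1 fell to 31 bp with divergence set at 50 points and without NZO/HlLtJ replicate 3. The gene lies at chr2:101950201-102186460 on the minus strand, and the stretch ran from 102113594 to 102113733, which is 140 bp with 6 divergent positions, 72727 bp from the start and well inside the gene. 129S1/SvImJ was low, at 0%, 8.33% and 10.9% in its 3 samples, and so was C57BL/6J, at 5.09%, 11.8% and 14.6%. CAST/EiJ lay in between, at 41.3%, 41.3% and 43.0%. NOD/ShiLtJ stood at 67.8%, 77.4% and 81.5%, and the other strains had means of 88.1% to 96.4%. No sample of 129S1/SvImJ or C57BL/6J overlapped any sample of the other 7 strains, while these 2 strains overlapped each other. With all C57BL/6J samples left out, the range of strain means stayed at 89.96 points, since 129S1/SvImJ was the lowest strain.

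The intermediate level of CAST/EiJ in Ldlrad3 was not the same at every position: its mean ran from 21.4% at 102113594 to 68.3% at 102113733. NOD/ShiLtJ varied as well, from 56.9% at 102113733 to 93.9% at 102113605. 129S1/SvImJ and C57BL/6J were at most 20% at 6 of 6 positions, and 5 strains were at least 80% at 6 of 6. The next listed position below, 102112449, lay 1145 bp away with strain means of 75% to 100%, and the next above, 102137582, lay 23849 bp away at 91.2% to 100%. Both flanking positions were thus methylated in every strain. The one below itself spanned 25 points, with 129S1/SvImJ lowest at 75% in 2 samples. It met the limit for divergence and was left out only because the gap was over 1000 bp. The lower border was therefore not fixed.

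At Hrob the 2 high strains were CAST/EiJ and PWK/PhJ. The gene lies at chr11:102248857-102265183, and its stretch ran from 102263226 to 102263824, which is 599 bp with 8 divergent positions, 1359 bp before the higher end of the gene. CAST/EiJ stood at 85.7%, 91.7% and 100% and PWK/PhJ at 87.5%, 92.5% and 93.3% in their samples. The other 7 strains had means of 1.49% to 7.20%, with the highest of their samples at 17.9%, far below the lowest CAST/EiJ sample. CAST/EiJ and PWK/PhJ overlapped, and PWK/PhJ had the higher mean in the chosen tile, at 91.8% against 89.95%. The range of strain means reached 100 points at 6 positions, 102263240 among them, and was narrowest, at 78.9 points, at 102263824. Below the stretch, the next listed position was 704 bp away at 102262522 and had 93.3% to 100% in every strain. The next above was 6223 bp away, beyond the gene. Among positions listed in CAST/EiJ and in NOD/ShiLtJ, the strains with the highest and the lowest mean, the next above was closer, 474 bp away at 102264298, with 25% in CAST/EiJ and 3.51% in NOD/ShiLtJ.

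Strains also differed in the CpGs listed in the Hrob stretch. CAST/EiJ and PWK/PhJ listed 17 positions each in at least 2 samples, 129S1/SvImJ and NZO/HlLtJ listed 12, and the other strains 8. At 8 positions CAST/EiJ and PWK/PhJ were the only strains listed, with strain means of 66.7% to 100%. The position 102263800 was listed in 129S1/SvImJ and NZO/HlLtJ, at 0%, and in CAST/EiJ and PWK/PhJ, at 100% and 83.3%. A further 3 positions were listed in 129S1/SvImJ and NZO/HlLtJ only, at 0% in each, and these strains were as low as those that listed 8. Extra listings thus occurred in strains of high and of low methylation, and their part in the result was not tested. The gene nearest to the stretch, Asb16, began 4927 bp above it.

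Tada2a differed in PWK/PhJ alone. The gene lies at chr11:84078920-84129644 on the minus strand, and its stretch ran from 84115781 to 84115956, which is 176 bp with 6 divergent positions, 13612 bp inside the gene from its start. PWK/PhJ stood at 85.4%, 88.9% and 91.7%. The other 8 strains had means of 0% to 6.18%, with 0% in each of the 3 C57BL/6J samples and at most 8.33% in any sample. Without C57BL/6J the range of strain means was 88.4 points against 88.7 with it. PWK/PhJ ran from 94.4% at 84115781 down to 69.4% at 84115956, the last position. Beyond the stretch, the next listed positions were methylated in every strain, with 86.4% to 97.9% at 84078979, 36802 bp below, and 94.7% to 100% at 84119816, 3860 bp above. The level of PWK/PhJ was the one nearer to these flanks.

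In Tram1 the stretch set CAST/EiJ apart. The gene lies at chr1:13564693-13589910, and the stretch ran from 13576360 to 13576617, which is 258 bp with 6 divergent positions, between 11667 and 13293 bp from the gene's ends. CAST/EiJ stood at 97.0%, 98.3% and 100%. The other strains had means of 10.1% to 29.6%, and the highest of their samples, from PWK/PhJ, was at 43.1%. These levels join 2 kinds of position. At the 5 positions from 13576587 on, which cover 31 bp, CAST/EiJ was at least 96.7% and every other strain at most 20.8%. At 13576360, 227 bp before them, the strains other than NZO/HlLtJ stood at 81.2% to 100%. The NZO/HlLtJ samples were at 75%, 80% and 0% there, so the low NZO/HlLtJ mean of 51.7% rested on replicate 3 alone. With divergence set at 50 points, or without NZO/HlLtJ replicate 3, the stretch shrank to those 31 bp and the range of its strain means rose from 88.3 to 96.8 points.

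PWK/PhJ shared a listing with CAST/EiJ in the Tram1 stretch but not the level. The positions 13576596 and 13576597 were listed in these strains only, with 100% in CAST/EiJ at each and 15.2% and 13.3% in PWK/PhJ. The next listed positions were 5770 bp below and 12578 bp above the stretch, so its borders are known only loosely. The position below, 13570590, stood at 93.3% to 100% in the strains, and the position above, 13589195, was at most 3.54% in any strain.

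**Figure D1:**
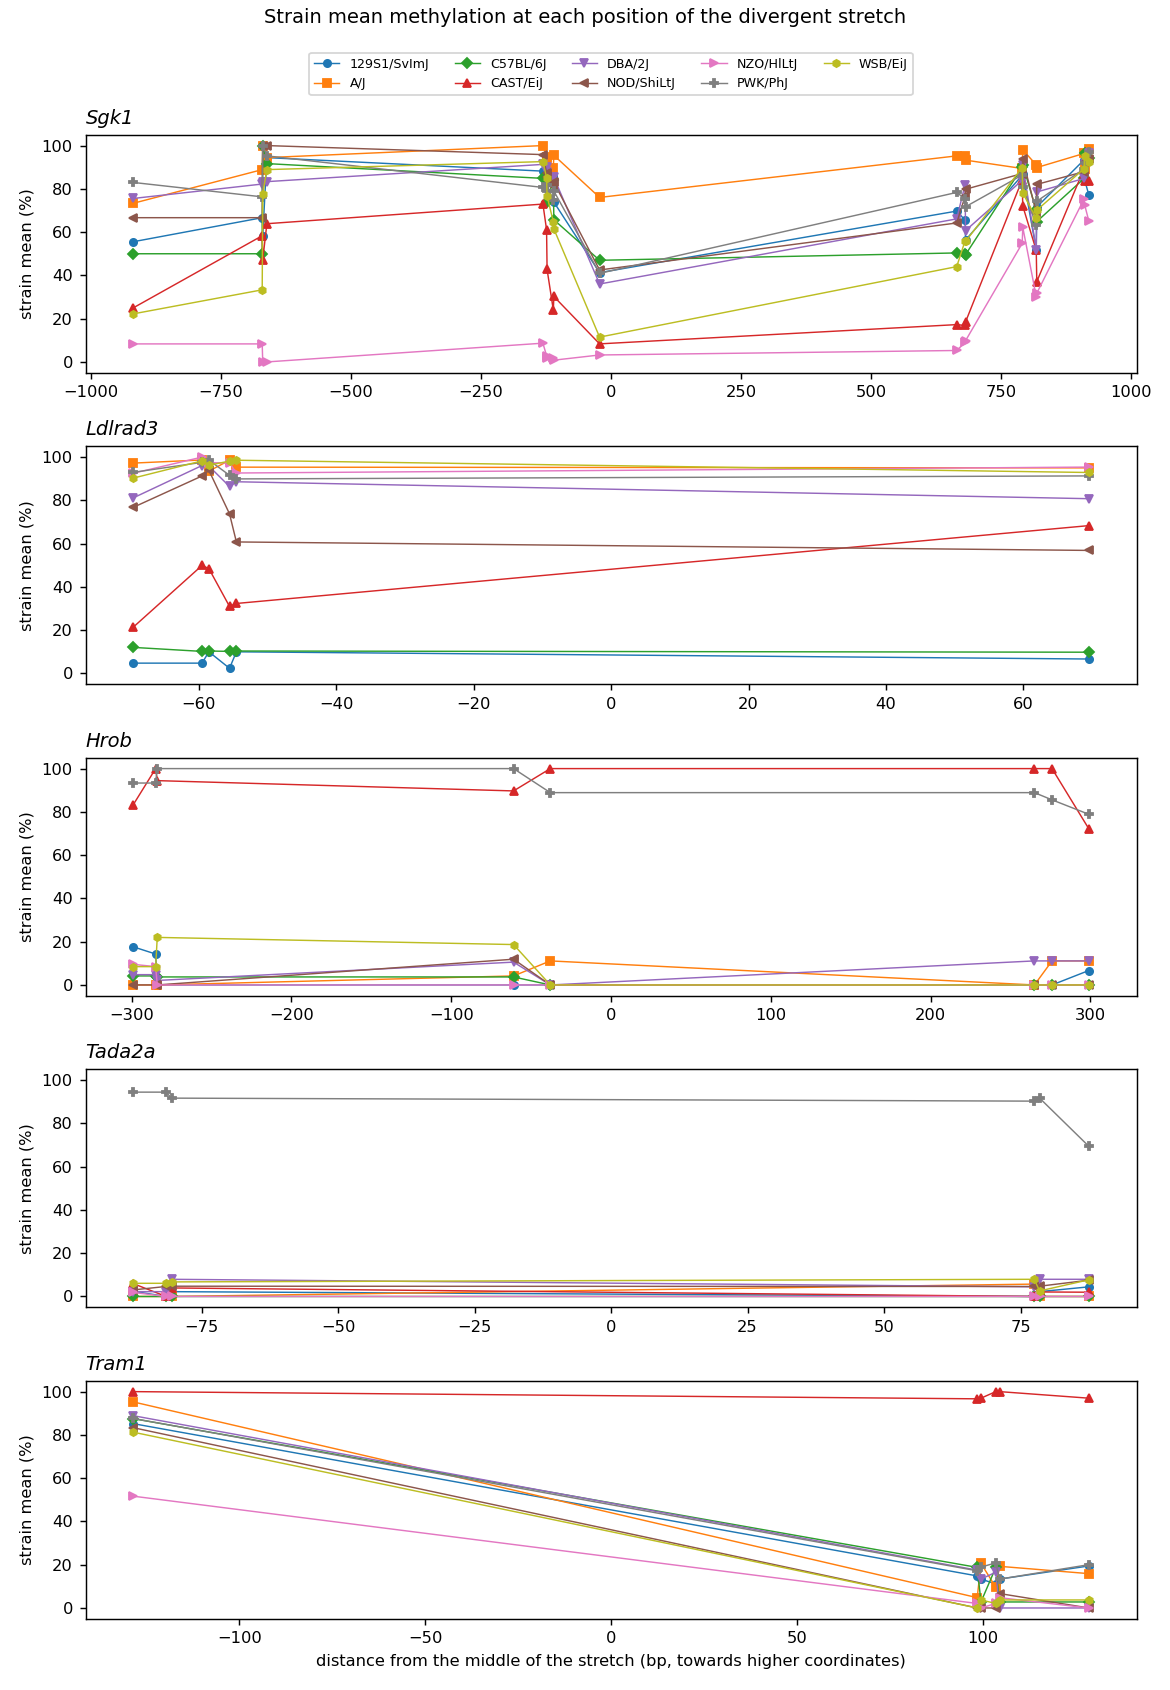
Strain mean methylation (%) at each position of the divergent stretch of the 5 genes against distance from the middle of the stretch in bp, 1 colour and marker per strain, with lines joining the positions of a strain. NZO/HlLtJ is the lowest strain at 20 of 20 Sgk1 positions, and the Tram1 stretch is divided between a single position on the left and 5 positions on the right where CAST/EiJ alone is high.

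**Figure D2:**
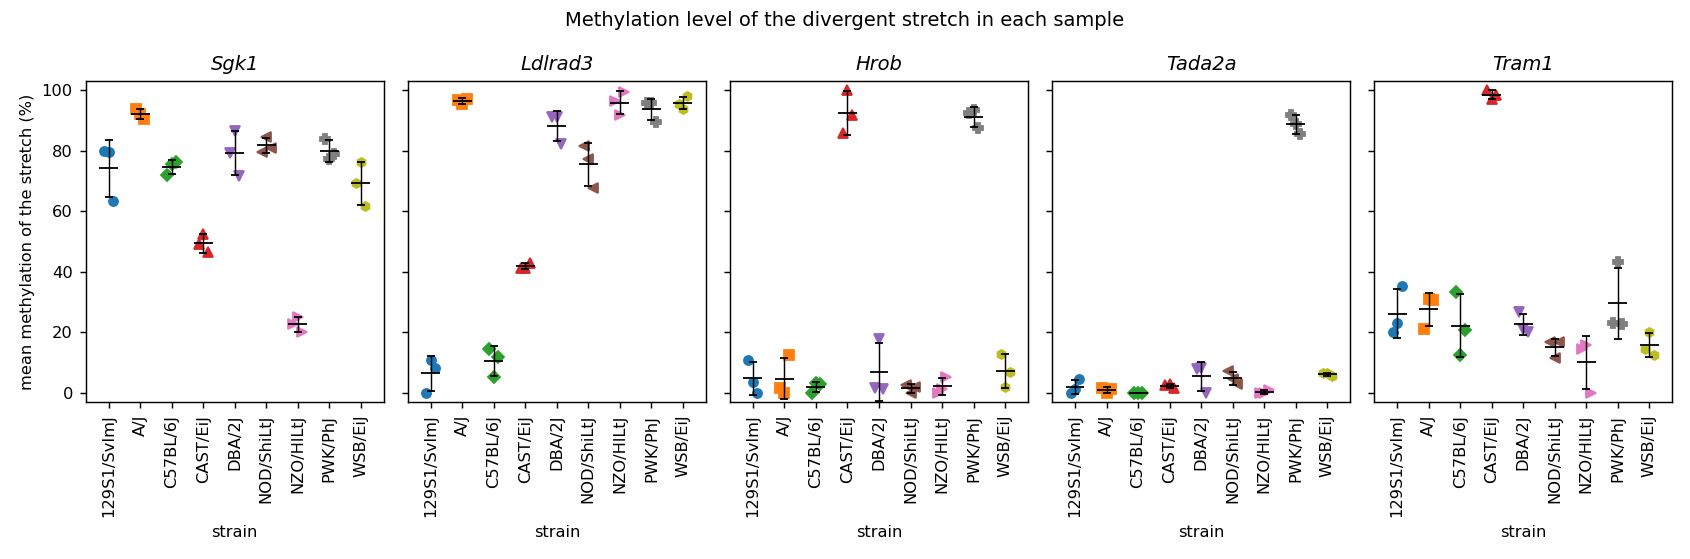
Mean methylation (%) over the listed positions of each stretch, 1 point per sample, with black bars for the strain mean and its SD (n = 3). The PWK/PhJ samples of Tada2a lie between 85.4% and 91.7% and all other samples at or below 8.33%.

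No strain held the same place in all 5 stretches. CAST/EiJ was the highest strain at Tram1 and, with PWK/PhJ, high at Hrob, and lay between the low and the high strains at Sgk1 and Ldlrad3, and in Tada2a it stood with the low strains at 2.32% ± 0.599 (SD, n = 3). PWK/PhJ was high at Hrob and Tada2a and low at Tram1. NZO/HlLtJ, the low strain of Sgk1, was among the high strains at Ldlrad3, at 95.9% ± 3.76 (SD, n = 3). In each stretch, the samples of the strains with the highest and the lowest stretch mean did not overlap at any of its positions. The choice of tiles by their range favours this, and the share over all positions of the series was not worked out.

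Each strand of a CpG had an entry of its own, which gives a second reading of the same site from other reads. The stretches held 7 such pairs at Sgk1, 2 at Ldlrad3, 1 at Hrob, 2 at Tada2a and 2 at Tram1. The median difference between the strands in a strain's mean was 6.03 points at Sgk1 and between 1.74 and 5.56 points at the other genes. Positions of these pairs entered the tile means by which the genes were chosen, so the differences are given as a description with no test. The largest such difference was 50 points, at Sgk1.

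Widths were set beside those found the same way around all 580 called tiles with a range of at least 50 points. These had a median width of 281.5 bp, with quartiles at 144.5 and 661 bp and extremes of 10 and 3367 bp. The Sgk1 stretch was wider than 96.6% of them, and that of Hrob wider than 72.2%. The stretches of Tram1, Tada2a and Ldlrad3 were wider than 46.6%, 31.0% and 23.6%. Their true widths could be larger, since the next listed positions left room for 18604 bp at Tram1 and 40836 bp at Tada2a. At Ldlrad3 they left 25132 bp, which is no upper limit, since the next position below was itself divergent. Whether range and width go together over the tiles was not tested. The place of Tram1 rests on 1 sample, since without NZO/HlLtJ replicate 3 its stretch measured 31 bp, below the lower quartile.

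**Figure D3:**
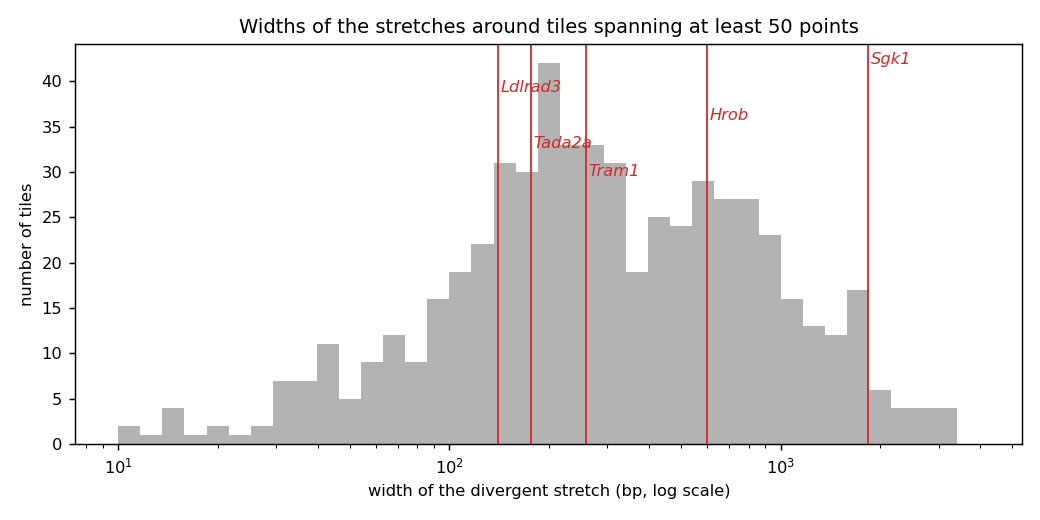
Histogram of the widths (bp, log scale) of the stretches around the 580 called tiles with a range of at least 50 points, with red lines at the 5 genes. Sgk1, at 1839 bp, lies in the upper tail and the others between 140 and 599 bp, where the 258 bp of Tram1 falls to 31 bp without NZO/HlLtJ replicate 3.

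Each position listed in all 27 samples whose mean lay at least 2.5 points from 0 and from 100 was tested with the moderated F test of limma, and called when its adjusted p was under 0.05 and its strain means spanned at least 25 points. In the series 4.97% of tested positions were called. Outside the tiles and stretches of the 5 genes this held for 5 of 228 tested positions, or 2.19%. This count was 9 without C57BL/6J replicate 4 and 8 without 129S1/SvImJ replicate 3 or NOD/ShiLtJ replicate 1. The shares were then 4.0%, 3.52% and 3.57%, against 4.98%, 4.76% and 4.76% of the series. The count was 16 on untransformed percent and 2 with an offset of 1 point in the log ratio. On untransformed percent the share was 7.02% against 6.25% of the series, and with an offset of 1 point 0.877% against 2.97%, so that whether the share lay below or above that of the series depended on the scale. By gene, on the scale used throughout, there were 1 of 100 at Sgk1, 2 of 79 at Ldlrad3, 0 of 35 at Hrob, 2 of 9 at Tada2a and 0 of 5 at Tram1. At an unadjusted p under 0.05 in the same limma test there were 4 of 35 positions at Hrob and 1 of 5 at Tram1. The other genes had 24 of 100 at Sgk1, 13 of 79 at Ldlrad3 and 3 of 9 at Tada2a. In the series this held for 117441 of 704337 tested positions.

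The called positions of Tada2a lay below its lower end, the end of transcription. At 84076624, CAST/EiJ stood at 50%, 53.8% and 76.2% and PWK/PhJ at 27.3%, 30% and 37.5%, while the other strains had means of 1.45% to 11.3% (limma, adjusted p = 0.000166). At 84076560, CAST/EiJ stood at 52.4%, 68.0% and 70.0% and PWK/PhJ at 26.3%, 55.6% and 57.1%, with 4.75% to 18.3% in the others (adjusted p = 0.00184). CAST/EiJ and PWK/PhJ were thus both raised beyond the end of the gene, whereas within its stretch CAST/EiJ was low.

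In Ldlrad3, the position 101979499 in the gene body, towards the end of transcription, stood at 30.6% in 129S1/SvImJ, 51.6% in C57BL/6J and 52.0% in WSB/EiJ and at 91.7% to 100% in the others (limma, adjusted p = 7.27e-05). 129S1/SvImJ and C57BL/6J, the low strains of the stretch, were low here also, but WSB/EiJ, which was high in the stretch at 95.7% ± 2.07 (SD, n = 3), joined them. The other called position of Ldlrad3, 102142960, was highest in A/J, at 61.5%, and lowest in C57BL/6J, at 14.7% (limma, adjusted p = 0.0224). Without the C57BL/6J samples its range was 44.6 points and it was no longer called (adjusted p = 0.0511), whereas the other called positions kept their calls. Counting the called positions, ranges of at least 50 points were seen at 5 positions each outside the stretches of Sgk1 and Ldlrad3 and at 2 of Tada2a. The widest was 83.3 points at 102099912 in Ldlrad3, from 16.7% in A/J to 100% in C57BL/6J. This position was not tested because it was not listed in all samples, and its range without C57BL/6J is not given here. Hrob held 8 positions outside its stretch with a range of at least 50 points, 7 of them between 102245263 and 102245287, below the gene. None of those tested was called, and their adjusted p was 0.163 to 0.376.

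**Figure D4:**
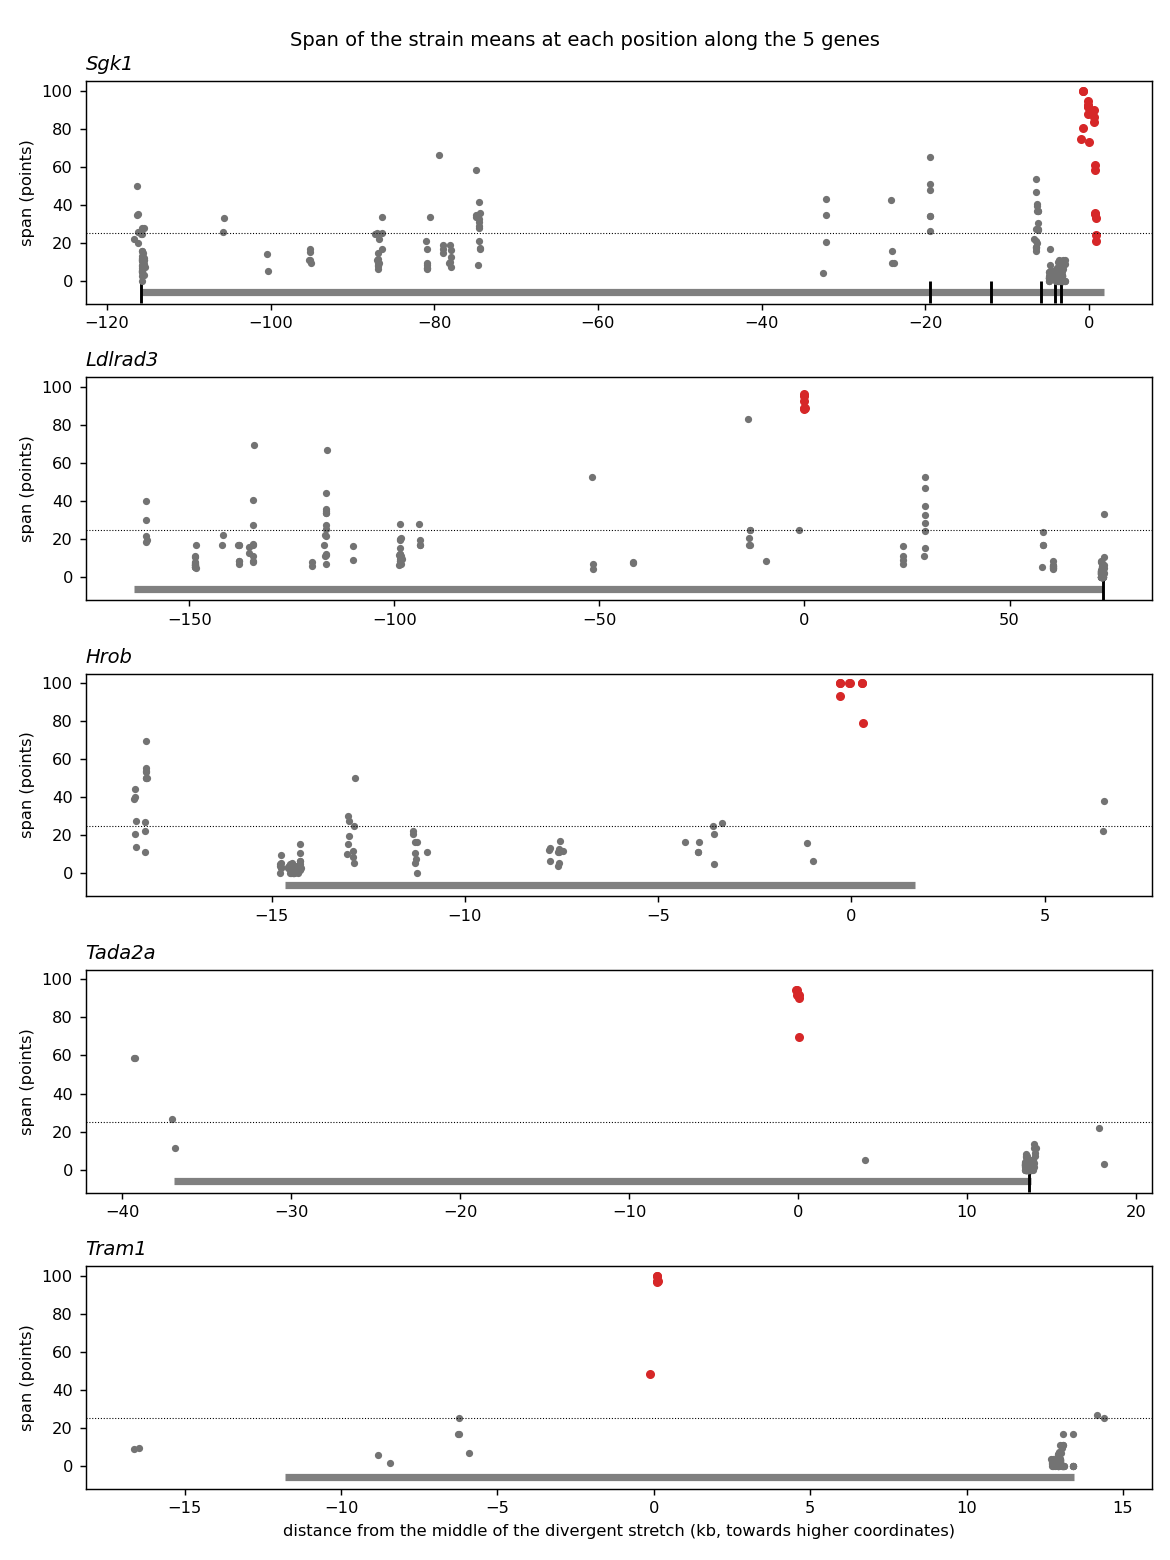
Range of the strain means (points) at each member position against distance from the middle of the divergent stretch in kb, with stretch positions in red and other positions in grey. The grey bar is the span of the gene, black ticks are starts in the promoter table, and the dotted line marks 25 points. Ranges of at least 25 points were seen at 18 of 20 stretch positions of Sgk1 and at all stretch positions of the other genes, and outside the stretches at 43 of 279 positions of Sgk1, 26 of 226 of Ldlrad3, 19 of 104 of Hrob, 3 of 100 of Tada2a and 2 of 88 of Tram1.

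Promoters were read in windows of 500 bp on either side of a start, with at least 3 positions listed in all 27 samples. In the series 2.17% of the windows at 1 start per gene were called, 2.26% of those at every start, and 2.33% of windows at the ends of protein-coding genes. The last kind was used for Hrob and Tram1, for which no start was used here.

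The promoters of Ldlrad3 and Tada2a were unmethylated in every strain. The Ldlrad3 window, with 108 positions, had a mean of 0.482%, and its strain means spanned 0.409 points, from 0.266% in NOD/ShiLtJ to 0.675% in DBA/2J (limma, adjusted p = 0.911). Its stretch spanned 89.96 points. In the printed upstream bases of Ldlrad3 the position with the widest range, 102186601, spanned 33.3 points, and the mean over them was 1.47%. The Tada2a window, with 86 positions, had a mean of 0.670% and spanned 0.424 points (limma, adjusted p = 0.868). It also covers the start of Acaca, which encodes acetyl-CoA carboxylase, the enzyme that commits acetyl-CoA to fatty acid synthesis, and which begins at 84129635, within the higher end of Tada2a.

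Of the Hrob gene ends, the lower one had 41 positions with a mean of 1.23% and a range of 1.07 points (limma, adjusted p = 0.221), and lay 14369 bp from the stretch. At the higher end, 1359 bp from the stretch, no position was listed in all samples. The higher end of Tram1 had 31 positions with a mean of 0.588% and a range of 1.28 points (limma, adjusted p = 0.484). At the lower end of Tram1 no position was listed in all samples. The end of Hrob and the end of Tram1 that could be read were thus low in every strain, whereas their stretches spanned 91.0 and 88.3 points.

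Sgk1 has 6 starts, and they did not behave alike. The windows at the starts nearest to the stretch, 21993890 and 21994666, had means of 0.697% over 77 positions and 0.823% over 80, with ranges of 1.45 and 1.62 points (limma, adjusted p = 0.843 and 0.687). NZO/HlLtJ, at 3.17% in the chosen tile, stood at 0.338% and 0.422% in these windows, and A/J, at 94.8% in that tile, at 1.79% and 1.99%. Over positions listed in all samples, both windows, which overlap in part, were thus low in the strain methylated downstream and in the one that was not. The A/J means were raised by 1 sample, at 4.67% and 4.64%. At 21993561, 21993580 and 21993599, listed in 7 strains and left out of the window at 21993890, A/J stood at 50% and NZO/HlLtJ at 0%. At the other positions of the windows listed in both of these but not in every strain, A/J was at most 16.7% and NZO/HlLtJ at 0%. The first start, 114941 bp from the stretch, had a mean of 7.35%. Its strains spanned 2.88 points, from 5.65% in WSB/EiJ to 8.52% in A/J, and its adjusted p of 0.00254 (limma) passed, but the range was far below 25 points and the window was not called.

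The Sgk1 start at 21978672, 18453 bp from the stretch, was called. Its window held 6 positions with a mean of 59.9%. PWK/PhJ stood at 27.7%, 38.5% and 43.4% and NZO/HlLtJ at 45.8%, 48.8% and 54.5%, while A/J stood at 66.5%, 77.5% and 77.8%. The samples of PWK/PhJ lay below those of every other strain. The strain means spanned 37.4 points, from 36.5% ± 8.05 in PWK/PhJ to 73.9% ± 6.45 in A/J (SD, n = 3), with an adjusted p of 4.99e-05 (limma). At 21978652, 20 bp before the start and the last CpG in capitals of the first printed sequence, PWK/PhJ stood at 32.7% and the other strains at 73.3% to 97.6% (adjusted p = 0.0172). On the other strand of that CpG, 21978653, PWK/PhJ was at 56.5% and NZO/HlLtJ at 58.5%, and this position was not called (adjusted p = 0.144).

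The order of strains at the Sgk1 start at 21978672 was not that of the stretch: A/J was the highest in each, but PWK/PhJ, lowest at the start, stood at 79.96% ± 3.54 (SD, n = 3) in the stretch. The window at the start 21992223, 4902 bp from the stretch, had a mean of 22.1% over 7 positions. Its strain means spanned 24.1 points, from 10.03% ± 2.90 in CAST/EiJ to 34.1% ± 5.78 in PWK/PhJ (SD, n = 3), with an adjusted p of 0.000437 (limma), and fell short of the required 25 points. C57BL/6J was nearly as high, at 21.4%, 34.3% and 42.7% in its samples, and leaving out any of 5 single samples brought the window past the threshold. The start at 21986104 had no position listed in all samples.

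**Figure D5:**
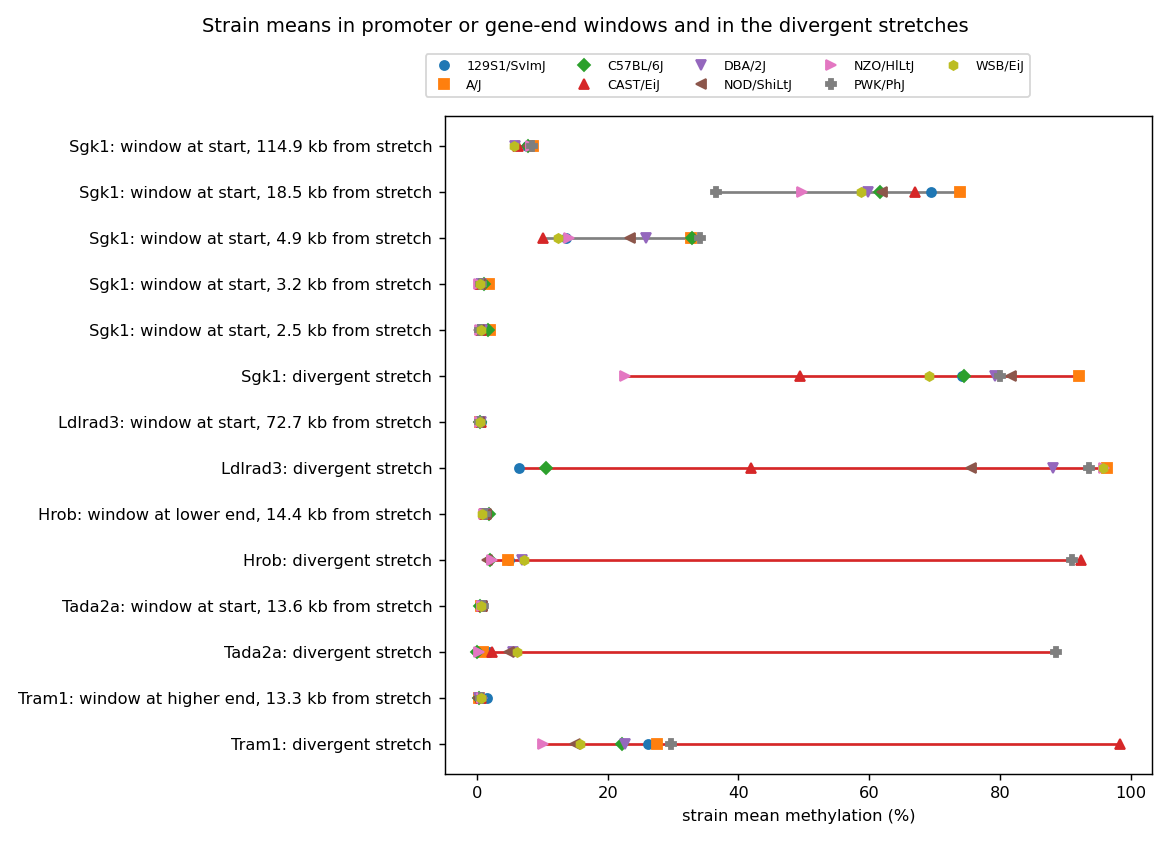
Strain mean methylation (%) in each readable start or gene-end window and in the divergent stretch, 1 marker per strain, with a bar from the lowest to the highest strain (red for stretches). Windows at the starts of Ldlrad3 and Tada2a and the ends of Hrob and Tram1 are gathered near 0%, and the Sgk1 start 18.5 kb from the stretch spans 37.4 points.

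The same contrast was counted over all genes with a called tile of at least 50 points away from their promoter window. Of 187 such genes with a readable promoter, 5 (2.67%) had a called promoter window, close to the 2.17% of all windows. The median range of their promoter windows was 0.985 points, against 0.842 points for all.

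At the level of 1 kb tiles, 8.01% of the tested tiles of the series were called. Outside the chosen tiles and the stretches, 1 of 18 tested tiles of the 5 genes was called, or 5.56%. It was the tile at the Sgk1 start at 21978672, which holds the same 6 positions as that window. The tile next to the chosen one in Sgk1, which overlaps the stretch, spanned 53.9 points. In Ldlrad3 a tile from 101997001 to 101998000 with 11 positions ran from 13.9% ± 3.05 in WSB/EiJ to 34.2% ± 1.12 in A/J (SD, n = 3). Its range of 20.2 points kept it below the call, although its adjusted p was 0.000138 (limma). It was not the tile nearest to a call. The Ldlrad3 tile from 102143001 spanned 24.3 points (limma, adjusted p = 0.0133) and the Sgk1 tile from 21991001 spanned 21.5 points (adjusted p = 0.000125).

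Genes that work with the 5 were read in the same way from a fixed list of 51. Of these, 35 had a readable promoter window and 0 were called by limma, against 2.17% of all windows. At an unadjusted p under 0.05 in the limma test there were 3 of 35, against 3156 of 12882 windows of the series. The lowest was that of Mbip, a subunit of the same acetyltransferase complex as Tada2a, whose strain means spanned 0.892 points (limma, adjusted p = 0.0041). Of 125 tested tiles in or near these genes 9 were called, or 7.2%, a share close to the 8.01% of the series. They lay in Nedd4l, the ubiquitin ligase that Sgk1 phosphorylates, with 2 tiles and a range of up to 36.7 points. They also lay in Lrp1, Lrp5 and Lrp8, endocytic and signalling receptors, with 32.2, 28.7 and 29.4 points. Further called tiles were in Rpa1, which coats single-stranded DNA, in Kat2a, the acetyltransferase partner of Tada2a, and in Tram2, the paralog of Tram1, with 39.9, 36.2 and 35.1 points. None of these named tiles reached the ranges of the 5 chosen tiles, which were picked for being extreme.

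The number of positions listed in a gene differed modestly between strains. At Sgk1 it ran from 345 in C57BL/6J to 383 in PWK/PhJ, at Ldlrad3 from 376 in C57BL/6J to 434 in PWK/PhJ and at Hrob from 138 in A/J to 176 in PWK/PhJ. At Tram1 it ran from 123 in WSB/EiJ to 131 in PWK/PhJ. Tada2a was the exception, with the fewest in PWK/PhJ, 120, and the most in DBA/2J, 137. Within the Sgk1 stretch CAST/EiJ and PWK/PhJ listed 38 positions each and the others 22 to 30. In the stretches of Ldlrad3 and Tada2a every strain listed 6 or 7, so in these 2 stretches the strains were read at nearly the same number of CpGs.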

How the data were processed

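DNA methylation was measured by RRBS in hepatocytes of 27 mice. The authors deposited 1 list per sample of single positions with a percent methylation, per the file headers, without counts or coverage, so the depth of a value and its counting error are not known. Trim Galore 0.6.3, Bowtie2, Bismark 0.22 and the builds GRCm38 and mm10 are named in the submitters' processing notes, with no role given. Any coverage filter is not given in the sources used here. Whether reads of each strain were aligned to the reference or to a strain genome is likewise not given.

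In the RefSeq promoter sequences of GRCm38.p6, 99.54% of the positions listed in C57BL/6J fell on a CpG, against 56.1% and 55.8% after a shift of 1 base either way. In the other strains the share was 97.9% to 99.0%, so coordinates were read as GRCm38, counted from 1. Gene spans are those of the RefSeq gene table. Of the 5 genes, 3 matched the promoter table, and for Hrob and Tram1 the gene ends were used.

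Groups are the strains in the labels. Percentages were tested as log2((percent + 5)/(100 - percent + 5)) with the moderated F test of limma 3.58.1 in R 4.3.3, strain as factor, over all features at once, with Benjamini-Hochberg adjustment. Calls needed an adjusted p under 0.05 and strain means at least 25 points apart. Positions had to be listed in all samples with a mean at least 2.5 points from 0 and 100. Tiles of 1 kb had to hold at least 5 positions listed in all samples, with the same limit on the mean of the tile. Tiles with a mean nearer to 0 or 100 were thus not tested. Windows had to hold at least 3 positions listed in all samples, with no limit on the mean. The test was tested on simulated data. Levels of a stretch are means over its positions in a sample. Python 3.11.15 with numpy 2.4.6, pandas 2.3.3 and matplotlib 3.10.9 was used.

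The members and lists were chosen with earlier results of these data known. Named genes are the 5 members, genes near a stretch and related genes with a call, of which 1 is counted but not reported here. Mbip and Ptpn3 were named after their values were seen. Windows at every start and at gene ends, the borders between extreme strains, and the tests without C57BL/6J were added after seeing the data, as were the positions named outside the stretches. A coverage minimum could not be tried, since the files give no coverage.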

Additional observations from a re-analysis of the deposited data

How the results depend on the processing

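Over the series, called positions (35024) numbered 20941 with an offset of 1 point and 19423 with a minimum range of 50 points. Called tiles (3651) numbered 11880 with no minimum range, 580 with 50 points, 6215 with at least 3 positions and 1279 with at least 10. Called promoter windows (279) numbered 1919 with no minimum range and 50 with 50 points. Of the positions outside the stretches 5 were called. When the mean had to lie between 10 and 90 percent, 9 of 82 were called, or 11.0% against 11.6% of the series. Without all C57BL/6J samples 8 of 223 were called, or 3.59% against 4.88%. With an offset of 1 point 2 were called (0.877% against 2.97%), and on untransformed percent 16 (7.02% against 6.25%). Leaving out single samples gave 5 to 9, with 9 without C57BL/6J replicate 4 and 8 without 129S1/SvImJ replicate 3 or NOD/ShiLtJ replicate 1. These were 4.0%, 3.52% and 3.57%, against 4.98%, 4.76% and 4.76% of the series. Of the tiles outside the stretches, where 1 of 18 was called, 7 were called with no minimum range and 0 with 50 points. With at least 3 positions 2 were called, and with at least 10 it was 0. Over the series these settings called 26.1%, 1.27%, 8% and 7.23% of the tested tiles. Leaving out single samples gave 1 to 2, with 2 without C57BL/6J replicate 2 or 4. The cause was not tested, beyond the number of features that each setting admits.

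The Sgk1 stretch kept its width of 1839 bp when any sample was left out. It measured 1051 bp over positions listed in all samples, with a range of 65.7 points, and its range was 77.6 points with divergence at 50 points or with no position allowed that was not divergent. The Tram1 stretch fell to 31 bp with a range of 96.8 points at 50 points. Leaving out single samples gave 31 to 258 bp and 87.6 to 96.8 points. With no minimum range, the Sgk1 windows at 21882184 (2.88 points) and 21992223 (24.1 points) were called, and with 50 points the one at 21978672 (37.4 points) was not. The window at 21992223 was also called without A/J replicate 1 or 3, C57BL/6J replicate 4, CAST/EiJ replicate 1 or PWK/PhJ replicate 1, with 22.7 to 28.5 points when single samples were left out. Of 851 alternative values 814 kept their call or stayed within the tolerance, which was 1.5 times for a count or width and 1 SD for a level. Many of these could hardly differ. Leaving out a sample of a strain that was neither highest nor lowest in a stretch mostly returned the same width and range. For 9 window values, over positions listed in at least 2 of 3 samples of every strain, the call was judged by the range alone. Within the tolerance, called promoter windows still fell from 279 to 193 with 250 bp on each side and to 205 with at least 5 positions.

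Replicate numbers in the labels did not pair samples: over 76 same-numbered pairs the deviations from strain means correlated at a mean of 0.00387 (-0.0416 to 0.0376), and 9 samples correlated best with their own number. With the replicate number as a replicate block, 26438 positions, 3500 tiles and 264 promoter windows were called, and 5 positions and 1 tile outside the stretches. That block changed no call among the windows of the 5 genes.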
